A study of Mus musculus with 39 samples.

Results

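The 9 genes of purine salvage and breakdown, Pnp, Pnp2, Ada, Adk, Hprt, Aprt, Xdh, Nt5e and Gda, were followed through 3 parts of the gut in 2 inbred strains of mice. The 9 genes were chosen by name, and Pnp2 was among them because earlier results of these data had shown it lower in BALB/cJ colon. Values were found for 8 of the 9 among 34600 entries per table, and Adk was not analysed here. Tissue was taken from 6 BALB/cJ and 7 C57BL/6J mice, and each mouse gave 1 library of duodenum/jejunum, 1 of ileum and 1 of colon, 39 libraries in all. The labels name strain, tissue and mouse and no allele, agent, age or sex. Ribosomal RNA was depleted from total RNA before sequencing, and values are TPM, the share of transcripts in a library after correction for transcript length. TPM holds no read numbers, so depth is unknown and no counting error is given. Values after ± are the SD over mice for TPM, shares and the log2 sum. For differences in log2(TPM + 1) from limma they are the SE.

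Cells rebuild purine nucleotides from free bases and nucleosides, which costs less than making the ring anew. CD73, encoded by Nt5e, releases adenosine from AMP outside the cell, adenosine deaminase (Ada) turns adenosine into inosine, and adenosine kinase (Adk) returns adenosine to AMP. Purine nucleoside phosphorylase, encoded by Pnp and in mice also by Pnp2, splits inosine and guanosine into a base and a sugar phosphate. Hprt and Aprt join free bases back to a sugar phosphate, whereas guanine deaminase (Gda) and xanthine oxidoreductase (Xdh) send them on to xanthine and urate. The epithelium of the small intestine meets the nucleic acids of food and is known for high levels of Ada and Xdh.

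Pnp and Pnp2 lie together on chromosome 14, both on the plus strand of GRCm38 in the GENCODE M21 annotation. Pnp spans chr14:50931082-50965237, and Pnp2, at chr14:50955992-50964749, falls within that span. Coding exons 2 to 6 of 1 annotated transcript of each gene, 2942 bases long for Pnp and 1372 for Pnp2, differed at 15 of 856 compared bases, 98.2% identity, while the first coding exons, 11 bases in Pnp and 56 in Pnp2, do not align. Among these coding exons, exon 4 does not tell the genes apart, and exon 5 does at 2 bases. Exon 6 does at 10 bases and 3 unmatched ones, and exons 2 and 3 do at 1 and 2 bases. Coding bases are 867 of the 2942 in the Pnp transcript and 915 of the 1372 in the Pnp2 transcript. Sequence outside exons 2 to 6, such as the unaligned first coding exons, can also tell the genes apart. Capitals mark bases that differ from the other gene or have no partner in it, and each line runs 5′ to 3′ on the plus strand.
Pnp and Pnp2 exon 4, chr14:50950543-50950718 and chr14:50963390-50963565: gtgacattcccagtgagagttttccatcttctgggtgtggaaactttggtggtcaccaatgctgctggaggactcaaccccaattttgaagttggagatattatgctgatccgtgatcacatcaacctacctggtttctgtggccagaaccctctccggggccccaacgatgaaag
Pnp exon 5, chr14:50950832-50951022: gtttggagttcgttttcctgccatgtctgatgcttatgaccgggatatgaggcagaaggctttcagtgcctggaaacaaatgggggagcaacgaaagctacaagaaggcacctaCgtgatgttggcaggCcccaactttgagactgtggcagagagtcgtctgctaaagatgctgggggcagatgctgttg
Pnp2 exon 5, chr14:50963679-50963869: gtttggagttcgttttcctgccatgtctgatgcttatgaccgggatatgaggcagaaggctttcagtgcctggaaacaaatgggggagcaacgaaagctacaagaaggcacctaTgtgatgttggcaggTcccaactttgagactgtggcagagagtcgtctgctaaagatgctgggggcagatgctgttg
Pnp exon 6, chr14:50951404-50951618: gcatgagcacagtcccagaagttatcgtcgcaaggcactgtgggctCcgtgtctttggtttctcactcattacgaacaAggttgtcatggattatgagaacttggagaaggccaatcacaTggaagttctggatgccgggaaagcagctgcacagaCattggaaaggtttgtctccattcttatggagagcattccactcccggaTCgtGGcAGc
Pnp2 exon 6, chr14:50964256-50964473: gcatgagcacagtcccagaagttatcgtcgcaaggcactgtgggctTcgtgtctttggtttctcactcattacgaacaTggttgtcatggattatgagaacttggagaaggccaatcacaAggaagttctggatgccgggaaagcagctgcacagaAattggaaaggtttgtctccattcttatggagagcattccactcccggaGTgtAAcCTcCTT
Of the 1342 words of 31 bases in that Pnp2 transcript, 597 (44.5%) also occur in Pnp transcripts, and the same 597 make up 20.5% of the 2912 words of the Pnp transcript. A read-through transcript, Gm49342, holds 30.4% of the words of Pnp2 and was not analysed here. Of its own words, 96.0% occur in Pnp and 66.1% in Pnp2. Reads from shared stretches can be split between the genes by the quantification, and the part of this in the values of either gene was not tested. The sum of both genes is given beside each, and any reads given to Gm49342 are not in it. TPM is corrected for transcript length, and the 2 transcripts above differ in length. The sum can therefore still depend on how shared reads were split.

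Most of the libraries matched their labels. H2-Ea-ps and Pla2g2a, transcripts known to differ between these strains, separated all BALB/cJ from all C57BL/6J libraries in each tissue. C57BL/6J mouse 2 went against its tissue labels: its ileum library held 22.1 TPM of the ileal bile acid binding gene Fabp6, against a median of 4657.7 TPM in its group, and 51.2 TPM of the duodenal enteropeptidase gene Tmprss15, against a median of 0.0253. Its duodenum/jejunum library held 6111.4 TPM of Fabp6 together with 39.2 TPM of Tmprss15. The ileum library of BALB/cJ mouse 2 had the lowest summed enterocyte markers of its group, 5054.7 TPM against a group median of 14632.2. Summed enterocyte markers (10 genes) ran between 17779.5 and 31773.7 TPM in BALB/cJ and between 14988.4 and 23184.6 TPM in C57BL/6J duodenum/jejunum. In colon they ran between 3672.0 and 5867.0 TPM in BALB/cJ and between 4011.6 and 7491.9 TPM in C57BL/6J. Summed smooth muscle markers (5 genes) were 2456.3 to 3488.5 TPM in BALB/cJ and 3116.6 to 3786.5 TPM in C57BL/6J colon. Summed stomach and Brunner gland markers (6 genes) were 2.0 to 3814.1 TPM in BALB/cJ and 10.7 to 3118.2 TPM in C57BL/6J duodenum/jejunum. Summed pancreas markers (7 genes) were 4.25 to 4385.9 TPM in BALB/cJ and 5.87 to 5939.3 TPM in C57BL/6J duodenum/jejunum. The part of this spread in the duodenum/jejunum values was not tested. In such bulk tissue, fewer cells of a type and less RNA per cell cannot be told apart.

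Pnp2 was the member with the widest gap between the strains, in all 3 tissues. In duodenum/jejunum it had 5.12, 5.88 and 6.88 TPM (lowest, median and highest) in BALB/cJ, against 119.0, 156.9 and 191.4 TPM in C57BL/6J. In ileum it had 4.10, 7.48 and 9.61 TPM in BALB/cJ, against 103.5, 168.9 and 209.4 TPM in C57BL/6J. In colon it had 0.786, 1.98 and 3.40 TPM in BALB/cJ, against 25.2, 25.7 and 27.8 TPM in C57BL/6J. The strains did not overlap in any tissue, and the mean was 25.9-fold, 22.1-fold and 12.6-fold lower in BALB/cJ duodenum/jejunum, ileum and colon. Values of both strains were made on GRCm38, and the part of BALB/cJ sequence differences from it in this gap was not tested. Since Pnp2 was picked for a strain difference in colon, its strain values and those of Pnp and of the sum are a description, and no test is given for them.

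Pnp itself did not repeat that pattern. In duodenum/jejunum it had 157.7, 177.2 and 193.8 TPM in BALB/cJ, against 128.3, 148.3 and 180.2 TPM in C57BL/6J. The ileum held 133.4, 198.1 and 216.7 TPM in BALB/cJ, against 122.2, 171.4 and 189.0 TPM in C57BL/6J. The strains overlapped in both, with means 1.15-fold higher in BALB/cJ. In colon Pnp had 33.7, 38.6 and 40.5 TPM in BALB/cJ, against 49.8, 54.5 and 58.8 TPM in C57BL/6J. There the strains did not overlap, and the BALB/cJ mean was 1.42-fold lower.

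**Figure D1:**
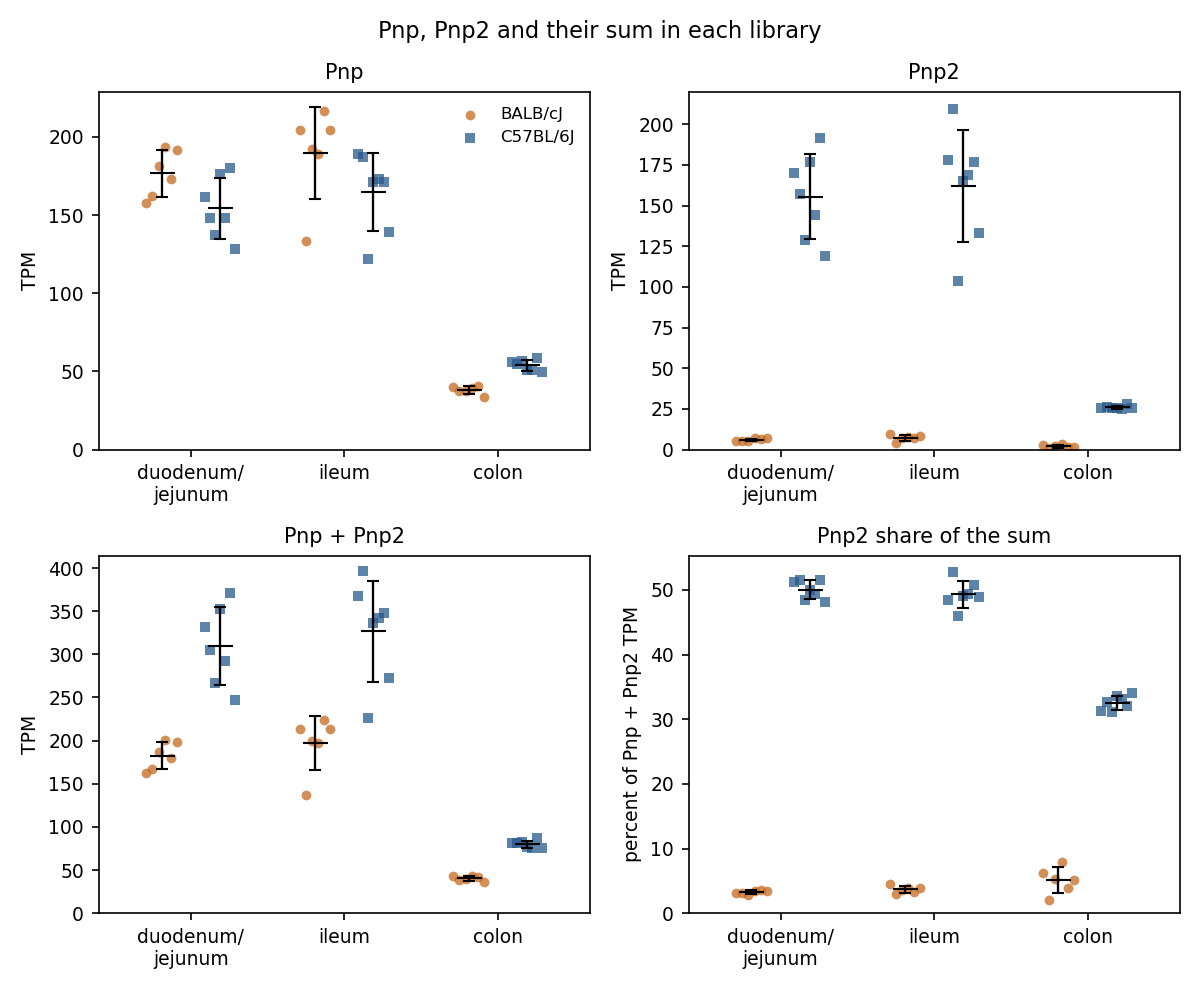
TPM of Pnp, Pnp2 and their sum, and the share of Pnp2 in the sum in percent, for each library by tissue, with BALB/cJ as circles and C57BL/6J as squares; bars give the mean and SD of 6 BALB/cJ or 7 C57BL/6J mice. Pnp2 and the sum do not overlap between the strains in any tissue, and the TPM levels are lowest in colon.

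The sum of Pnp and Pnp2 was lower in BALB/cJ in every tissue. It averaged 182.7 ± 15.7 TPM in BALB/cJ and 309.6 ± 45.1 TPM in C57BL/6J duodenum/jejunum (SD, n = 6 and n = 7). In ileum it averaged 197.4 ± 31 TPM in BALB/cJ and 326.8 ± 58.4 TPM in C57BL/6J. In colon it averaged 40.2 ± 2.91 TPM in BALB/cJ and 80.0 ± 4.03 TPM in C57BL/6J. The strains did not overlap in any of the 3, and the BALB/cJ mean was 1.69-fold, 1.66-fold and 1.99-fold lower. Without C57BL/6J mouse 2 the ileum value was 1.60-fold. The part of the split of shared reads in these gaps was not tested.

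Pnp2 made up a small part of the sum in BALB/cJ, with a mean share of 3.28 ± 0.262%, 3.69 ± 0.546% and 5.09 ± 1.99% in duodenum/jejunum, ileum and colon. In C57BL/6J the shares were 50 ± 1.45%, 49.3 ± 2.13% and 32.5 ± 1.1%. The share in colon was lower than in ileum and in duodenum/jejunum in 7 of 7 C57BL/6J mice, with no overlap between colon and either part of the small intestine. In BALB/cJ colon it was higher than in ileum in 5 of 6 mice, and these ranges overlapped. As ratios of means, Pnp was 4.63-fold lower in colon than in duodenum/jejunum in BALB/cJ and 2.86-fold lower in C57BL/6J. Pnp2 was 2.90-fold lower in colon than in duodenum/jejunum in BALB/cJ and 5.97-fold lower in C57BL/6J.

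Across tissues, the sum fell in colon in both strains and did not differ detectably between the parts of the small intestine. Within mice, the log2 sum differed between colon and ileum by -2.28 ± 0.251 (SD) and was lower in colon in 6 of 6 BALB/cJ mice, a 4.86-fold difference. The difference was -2.01 ± 0.280, with colon lower in 7 of 7 C57BL/6J mice, a 4.03-fold difference. Each of these reached the smallest p that the exact 2-sided sign-flip permutation test allows, 0.0312 with 6 mice and 0.0156 with 7, and an adjusted p of 0.0469 over the 6 tests. The log2 difference of colon minus duodenum/jejunum was -2.18 ± 0.183 in BALB/cJ and -1.94 ± 0.186 in C57BL/6J, in every mouse of both strains, with the same adjusted p by this permutation test. Ileum minus duodenum/jejunum gave 0.10 ± 0.245 in BALB/cJ (permutation p 0.312, adjusted 0.375) and 0.07 ± 0.213 in C57BL/6J (permutation p 0.438, adjusted 0.438).

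Nt5e (chr9:88327197-88372092, plus strand), the source of extracellular adenosine, was one of 2 members that rose in colon, a call lost after rescaling by relative log expression. It had 16.5, 32 and 46.5 TPM in BALB/cJ, against 14.7, 27.7 and 46 TPM in C57BL/6J duodenum/jejunum. In ileum it had 21.4, 41.9 and 63.2 TPM in BALB/cJ, against 9.81, 26.1 and 56.7 TPM in C57BL/6J. The colon held 43.4, 47.9 and 54.3 TPM in BALB/cJ, against 29.4, 43.0 and 67.5 TPM in C57BL/6J. The strains overlapped in each tissue, and small intestinal libraries of both strains were spread wider than BALB/cJ colon. The strain difference (BALB/cJ minus C57BL/6J) of 0.66 ± 0.33 (SE) in log2(TPM + 1) in ileum did not pass limma's test (adjusted p 0.162), but without C57BL/6J mouse 2, whose ileum library held 56.7 TPM, it was 0.85 (adjusted p 0.049).

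Ada (chr2:163726584-163750239, minus strand) had the steepest fall along the gut. It had 287.8, 331.3 and 547.5 TPM in BALB/cJ, against 166.7, 476.1 and 599.5 TPM in C57BL/6J duodenum/jejunum. The ileum held 64.2, 238.0 and 257.8 TPM in BALB/cJ, against 52.0, 177.0 and 982.6 TPM in C57BL/6J. In colon it had 6.79, 7.51 and 8.44 TPM in BALB/cJ, against 5.89, 7.28 and 9.58 TPM in C57BL/6J. The strains overlapped in all 3 tissues and no strain difference was called, with estimates between -0.13 and 0.02 on the log2 scale and an SE of 0.57 in ileum. The lowest ileum library in BALB/cJ was that of mouse 2, and the highest in C57BL/6J that of mouse 2, the library that carried duodenal markers; the other BALB/cJ ileum libraries held 224.6 to 257.8 TPM and the other C57BL/6J ones 52.0 to 387.2 TPM.

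Aprt (chr8:122574635-122576909, minus strand), which salvages adenine, fell along the gut in smaller steps. It had 229.9, 283.0 and 341.3 TPM in BALB/cJ, against 196.5, 246.3 and 268.5 TPM in C57BL/6J duodenum/jejunum. In ileum it had 161.8, 213.3 and 229.8 TPM in BALB/cJ, against 152.8, 177.6 and 250.1 TPM in C57BL/6J. The colon held 123.0, 130.0 and 139.9 TPM in BALB/cJ, against 116.0, 119.5 and 121.4 TPM in C57BL/6J. The strains overlapped in the small intestine and not in colon, where every BALB/cJ library was higher than every C57BL/6J library. The colon difference was 0.15 ± 0.04 (SE, adjusted p 0.0083, limma), or 1.11-fold. In ileum the difference of 0.15 ± 0.11 was not called (adjusted p 0.367, limma), but without mouse 2 of both strains it was 0.29 (adjusted p 0.015).

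Hprt (chrX:52988137-53021659, plus strand), which salvages hypoxanthine and guanine and often serves as a reference gene, had the narrowest range. It had 56.8, 61.0 and 69.4 TPM in BALB/cJ, against 56.4, 58.2 and 61.7 TPM in C57BL/6J duodenum/jejunum. The ileum held 65.0, 68.8 and 72.7 TPM in BALB/cJ, against 50.1, 61.5 and 63.4 TPM in C57BL/6J. In colon it had 74.9, 78.6 and 82.3 TPM in BALB/cJ, against 72.7, 83.4 and 85.8 TPM in C57BL/6J. Only the ileum ranges did not overlap, and there Hprt rose in BALB/cJ by 0.20 ± 0.07 (SE, adjusted p 0.048, limma). The median of all genes tested in ileum was itself 0.17 higher in BALB/cJ, and with libraries rescaled by relative log expression the Hprt difference was 0.01 (adjusted p 0.948).

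Gda (chr19:21391307-21473445, minus strand), which turns guanine into xanthine, was lower in BALB/cJ in the upper gut. It had 258.4, 343.7 and 398.2 TPM in BALB/cJ, against 373.5, 496.1 and 661.1 TPM in C57BL/6J duodenum/jejunum. In ileum it had 100.5, 198.9 and 256.0 TPM in BALB/cJ, against 169.2, 330.9 and 865.2 TPM in C57BL/6J. The colon held 45.0, 46.2 and 50.6 TPM in BALB/cJ, against 21, 35.9 and 62.3 TPM in C57BL/6J. All ranges overlapped, in duodenum/jejunum through the lowest C57BL/6J library only, and C57BL/6J colon was spread far wider than BALB/cJ colon. The duodenum/jejunum difference was -0.58 ± 0.14 (SE, adjusted p 0.013, limma), a 1.5-fold fall, and without C57BL/6J mouse 2, which gave that lowest library, the ranges no longer overlapped. In ileum the difference of -0.86 ± 0.31 did not pass limma's test (adjusted p 0.066), nor did 0.34 ± 0.19 in colon (adjusted p 0.225).

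Xdh (chr17:73883895-73950196, minus strand), which makes urate, followed the same course along the gut. It had 153.8, 268.7 and 352.8 TPM in BALB/cJ, against 229.3, 273.2 and 375.6 TPM in C57BL/6J duodenum/jejunum. The ileum held 116.4, 156.7 and 176.6 TPM in BALB/cJ, against 132.3, 197.3 and 479.6 TPM in C57BL/6J. In colon it had 37.1, 40.8 and 42.8 TPM in BALB/cJ, against 28, 33.6 and 36.8 TPM in C57BL/6J. The strains overlapped in the small intestine and not in colon, where Xdh rose in BALB/cJ by 0.30 ± 0.06 (SE, adjusted p 0.0016, limma), or 1.23-fold.

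**Figure D2:**
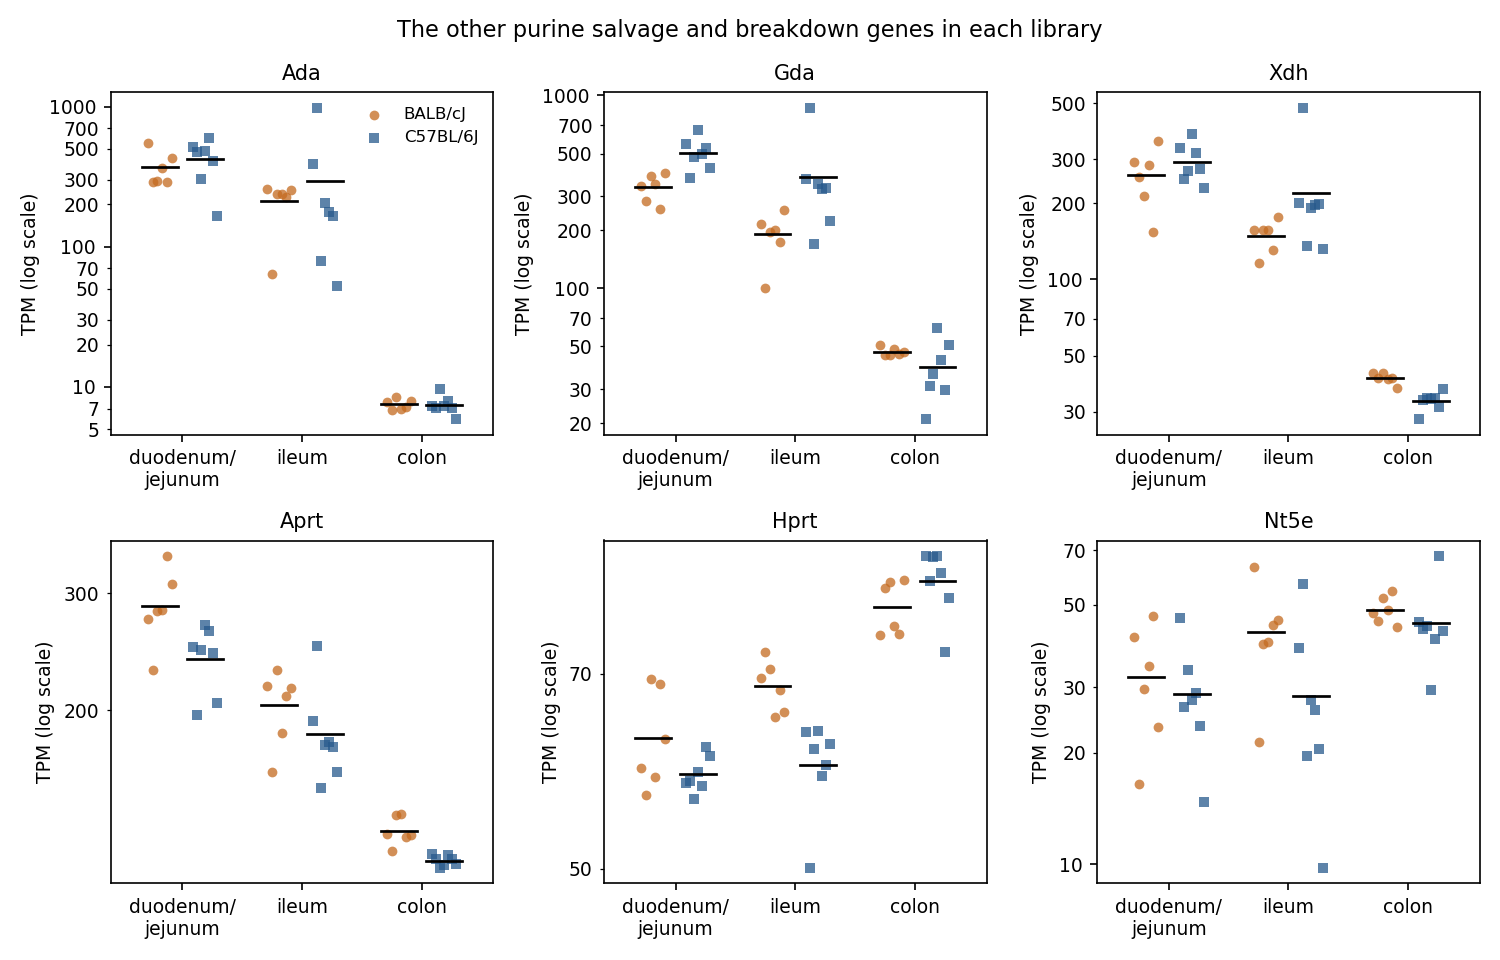
TPM on a log axis of Ada, Gda, Xdh, Aprt, Hprt and Nt5e in each library by tissue, with BALB/cJ as circles and C57BL/6J as squares; lines give the mean. Ada, Gda, Xdh and Aprt are lowest in colon in both strains, Hprt is highest there, and the ileum library of C57BL/6J mouse 2 is the highest Ada, Gda and Xdh point in ileum.

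Read over the 6 members tested for strain, 1 was called in duodenum/jejunum (Gda, lower), 1 in ileum (Hprt, higher) and 2 in colon (Aprt and Xdh, higher). Of all genes tested, 9.50%, 20.4% and 25.3% were called in those tissues (limma on log2(TPM + 1), Benjamini-Hochberg adjusted p under 0.05 over 15306, 15537 and 15769 genes). With 6 members, each share rests on 1 or 2 genes and reads near that of all genes. Markers of other cell types differed between the strains beside the colon calls: 5 of 5 B cell, 4 of 5 T cell and 4 of 5 myeloid markers were higher in BALB/cJ colon, and 3 of 6 crypt and proliferation markers tested were lower. In colon 4 of 5 erythroid, 3 of 4 adipocyte and 2 of 5 stroma and endothelium markers were also higher. There 2 of 5 smooth muscle markers were lower. In BALB/cJ ileum 4 of 5 erythroid, 3 of 5 myeloid and 3 of 5 stroma and endothelium markers were higher. The 1 pancreas marker tested in ileum was lower. The part of these markers in the Hprt, Aprt and Xdh values was not tested.

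The strain difference itself changed between tissues for 2 of the 6. For Gda the strain difference in colon exceeded that in ileum by 1.19 ± 0.34 (SE, adjusted p 0.034, limma), and for Hprt the same contrast was -0.26 ± 0.08 (adjusted p 0.043). Over all 16533 genes 4.25% were called in that contrast. Without C57BL/6J mouse 2 neither was called, with Gda at 0.92 (adjusted p 0.059) and Hprt at -0.22 (adjusted p 0.079), and without BALB/cJ mice 3 and 5, which had been singled out for pancreatic transcripts, the adjusted p was 0.123 for Gda and 0.118 for Hprt. For colon minus duodenum/jejunum, none of the 6 was called, against 5.81% of all genes, but Gda gave 0.92 ± 0.34 (adjusted p 0.111) and 0.95 (adjusted p 0.036) without C57BL/6J mouse 2. For ileum minus duodenum/jejunum none of the 6 was called either, with unadjusted p between 0.15 and 0.79, against 4.24% of all genes (701), or 1337 genes with the mouse as a block.

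By tissue, the means of the 2 strains gave a sharp split between members. In colon minus duodenum/jejunum, 6 of 8 fell and 2 rose, where 75.0% of all 16533 genes were called, 9432 of them higher and 2964 lower, and the median gene rose by 0.29. Ada fell by 5.48 ± 0.28 (SE) in log2(TPM + 1), Gda fell by 3.25 ± 0.17 and Xdh fell by 2.84 ± 0.13 (adjusted p 1.3e-19, 2.4e-19 and 4.2e-21, limma). Pnp2 fell by 1.88 ± 0.11, Pnp fell by 1.84 ± 0.07 and Aprt fell by 1.05 ± 0.06 (adjusted p 1.8e-17, 7.5e-24 and 4e-17). Hprt rose by 0.40 ± 0.04 (adjusted p 1e-11) and Nt5e by 0.65 ± 0.19 (adjusted p 0.0023). With libraries rescaled by relative log expression neither of those 2 was called, at 0.06 for Hprt (adjusted p 0.315) and 0.32 for Nt5e (adjusted p 0.166).

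In colon minus ileum, the same 6 of 8 fell and the same 2 rose, beside 67.6% called among all genes. Ada fell by 4.52 ± 0.28, Gda fell by 2.54 ± 0.17, Xdh fell by 2.20 ± 0.13 and Pnp fell by 1.93 ± 0.07 (adjusted p 6.1e-17, 5.6e-16, 1.4e-17 and 2.1e-24, limma). Hprt rose by 0.32 ± 0.04 (adjusted p 2.5e-09) and Nt5e by 0.51 ± 0.19 (adjusted p 0.017). The Nt5e call was lost after that rescaling, at 0.31 (adjusted p 0.189), and without BALB/cJ mice 3 and 5, at 0.49 (adjusted p 0.06). In ileum minus duodenum/jejunum, 4 of 8 fell and 4 were not called, beside 43.6% of all genes. Ada fell by 0.95 ± 0.28, Gda fell by 0.71 ± 0.17, Xdh fell by 0.64 ± 0.13 and Aprt fell by 0.44 ± 0.06 (adjusted p 0.0056, 0.00086, 0.00014 and 1.4e-06). Pnp and Pnp2 gave 0.09 ± 0.07 and 0.14 ± 0.11 (adjusted p 0.298 and 0.327), Nt5e 0.14 ± 0.19 (adjusted p 0.569) and Hprt 0.08 ± 0.04 (adjusted p 0.104), with Hprt at 0.10 (adjusted p 0.027) without C57BL/6J mouse 2. In that mouse alone Ada, Aprt, Gda and Xdh were higher in the ileum than in the duodenum/jejunum library, while they were lower in the 6 other C57BL/6J and all 6 BALB/cJ mice. The fall of the summed enterocyte markers along the gut ran beside these falls, and its part in them was not tested. Their ileum medians were 14632.2 TPM in BALB/cJ and 12446.7 TPM in C57BL/6J, and the other levels are given above. Those markers include Alpi, which itself fell by 5.70 ± 0.19 (SE) in colon minus duodenum/jejunum, and the proximal small intestine marker Lct. The sum therefore does not tell fewer enterocytes from regional expression.

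**Figure D3:**
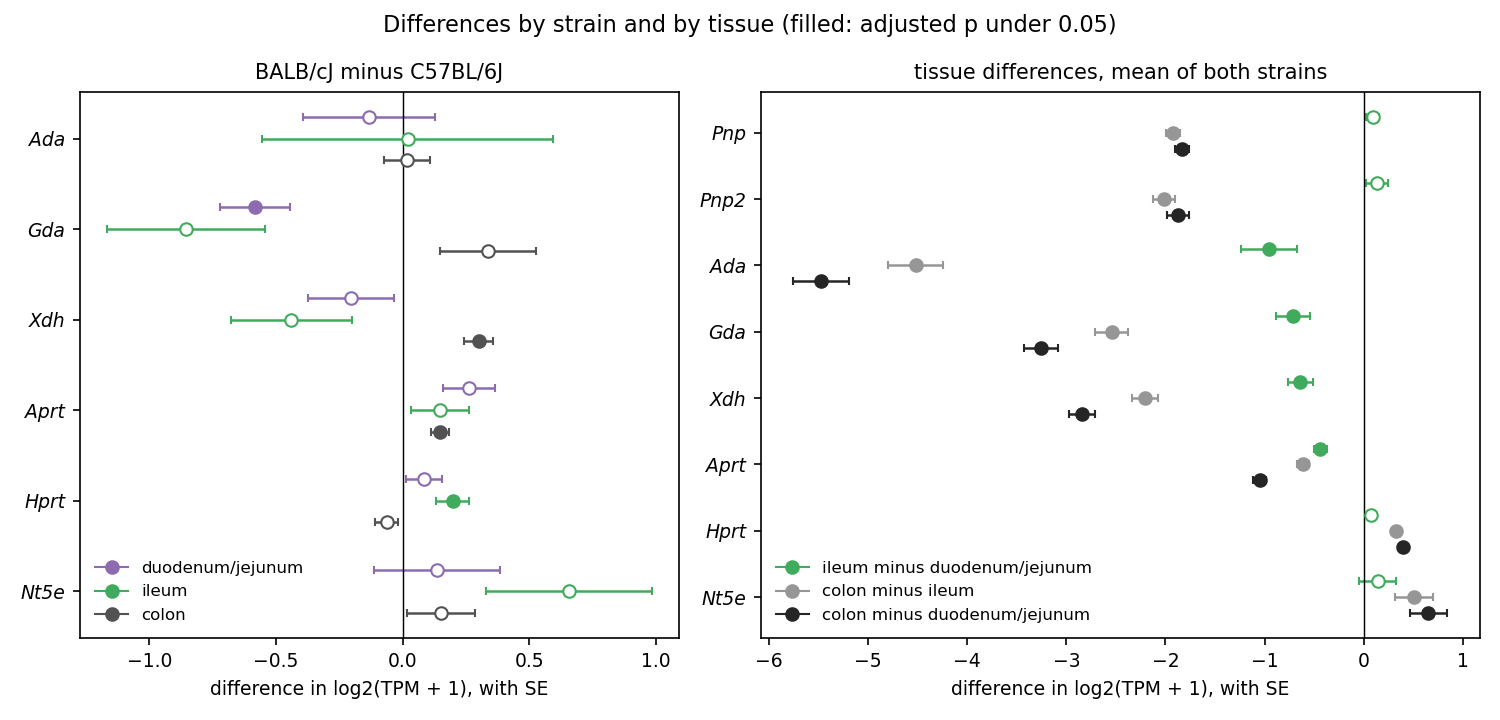
Differences in log2(TPM + 1) with SE from limma, on the left BALB/cJ minus C57BL/6J in each tissue for the 6 members tested, on the right between tissues for all 8; filled points passed an adjusted p of 0.05. On the right Ada reaches -5.48 in colon minus duodenum/jejunum and Hprt and Nt5e lie above 0, and on the left only 4 points are filled.

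The order of the members' levels turned over between small intestine and colon. In BALB/cJ duodenum/jejunum the order by mean TPM was Ada, Gda, Aprt, Xdh, Pnp, Hprt, Nt5e and Pnp2, and the first 5 overlapped each with its neighbour. In C57BL/6J it was Gda, Ada, Xdh, Aprt, Pnp2, Pnp, Hprt and Nt5e, where Aprt did not overlap Pnp2, and Pnp2 overlapped Pnp. In BALB/cJ colon the order was Aprt, Hprt, Nt5e, Gda, Xdh, Pnp, Ada and Pnp2, with overlap between Nt5e and Gda and between Xdh and Pnp. In C57BL/6J colon it was Aprt, Hprt, Pnp, Nt5e, Gda, Xdh, Pnp2 and Ada, with overlap in each step between Pnp and Xdh.

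The 7 wider lists of purine and pyrimidine genes placed the members in their pathways, with 114 of 120 listed symbols in the tables. In colon minus duodenum/jejunum 87 of 103 tested (84.5%) were called, 57 higher and 30 lower, against 75.0% of all genes, 9432 higher and 2964 lower. Of purine synthesis de novo, 15 of 17 rose and 2 fell, with a median of 0.58 against 0.29 over all genes. Paics and Impdh1, a synthesis enzyme and the one that commits IMP to GMP, rose by 1.36 ± 0.11 and 1.33 ± 0.10 (adjusted p 7.4e-14 and 1.4e-14, limma). Purine nucleotide breakdown inside the cell likewise had 15 of 19 higher and 2 lower, with a median of 0.58. Gmpr, which turns GMP back into IMP, rose by 2.32 ± 0.12 (adjusted p 2.3e-19, limma). The list also holds the pyrimidine nucleotidase gene Nt5c3, which rose by 1.60 ± 0.09 (adjusted p 6e-19, limma).

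Genes that handle nucleotides at the cell surface were split. Of extracellular nucleotide and adenosine handling, 10 of 21 rose and 9 fell in that contrast, with a median of -0.01. Alpi, the intestinal alkaline phosphatase, fell by 5.70 ± 0.19 and Dpp4, a peptidase that binds adenosine deaminase in humans, fell by 3.72 ± 0.10 (adjusted p 1.1e-25 and 4.8e-28, limma). Dpp4 averaged 32.2 ± 3.85 TPM in BALB/cJ and 29.3 ± 3.64 TPM in C57BL/6J colon. Of the nucleoside and nucleobase transporters 4 of 9 rose and 4 fell, with a median of -0.13. Slc28a2, a sodium-driven carrier of purine nucleosides, fell by 5.14 ± 0.23, but 46.3% of its words of 31 bases are shared with Gm14085. Slc23a4, a nucleobase carrier, fell by 3.57 ± 0.17 and Slc28a3 fell by 1.62 ± 0.10 (adjusted p 7.6e-21 and 1.7e-16).

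Of urate formation, breakdown and transport, 3 of 10 rose and 6 fell, with a median of -0.26. The urate carrier gene Slc2a9 fell by 2.84 ± 0.11, and Mocs2 and Mocos, of the molybdenum cofactor that Xdh needs, gave -1.97 ± 0.10 and -1.47 ± 0.07 (adjusted p 1.6e-23, 1.7e-19 and 6e-21, limma). Of the deoxynucleoside and other nucleoside kinases 6 of 15 rose and 2 fell, with a median of 0.10, and Ak4 rose by 2.73 ± 0.16 (adjusted p 1.3e-17). Of pyrimidine phosphorylases and deaminases 4 of 12 rose and 5 fell, with a median of 0.04. Dpyd, which starts pyrimidine breakdown, fell by 2.80 ± 0.13 and the cytidine deaminase gene Cda fell by 2.47 ± 0.19 (adjusted p 2.6e-21 and 4.9e-14).

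In the other tissue contrasts the lists were called in 81 of 103 genes (78.6%) for colon minus ileum, 53 higher and 28 lower, against 67.6% of all genes. For ileum minus duodenum/jejunum 54 of 103 (52.4%) were called, 34 higher and 20 lower, against 43.6% of all genes. Within the small intestine Akp3, a further intestinal alkaline phosphatase, fell by 6.44 ± 0.53, and Enpp3, an ectonucleotidase, fell by 2.45 ± 0.32 (adjusted p 2.5e-11 and 1.7e-07, limma). Upp1, uridine phosphorylase, rose by 1.16 ± 0.14 there and fell by 2.51 ± 0.14 in colon minus ileum (adjusted p 2.8e-08 and 1.9e-18). The urate exporter gene Abcg2 rose by 0.81 ± 0.09 in ileum minus duodenum/jejunum (adjusted p 5.8e-09).

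**Figure D4:**
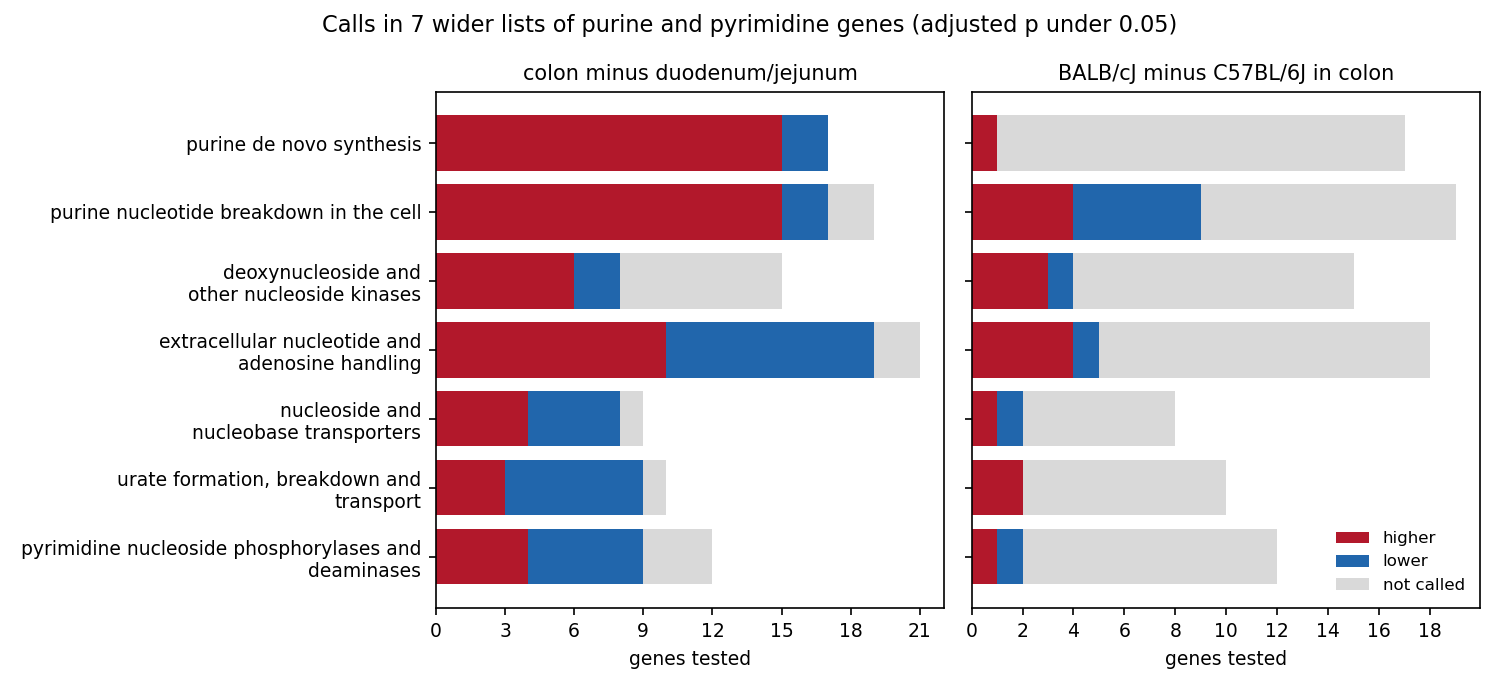
Number of genes tested in 7 wider lists that were higher, lower or not called (limma, adjusted p under 0.05), for colon minus duodenum/jejunum on the left and BALB/cJ minus C57BL/6J in colon on the right. Synthesis de novo has 15 of 17 genes higher in colon minus duodenum/jejunum, and 1 of 17 called by strain in colon.

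Between strains the wider lists were called at 11 of 98 genes (11.2%) in duodenum/jejunum, 16 of 97 (16.5%) in ileum and 25 of 99 (25.3%) in colon, near the shares of all genes. Of synthesis de novo none of 17, 4 of 17 (all higher) and 1 of 17 (higher) were called in duodenum/jejunum, ileum and colon. Among all genes in ileum, 2677 of the 3169 called were higher in BALB/cJ, and the median difference was 0.17. Prps1 makes the sugar phosphate that Hprt and Aprt use. It rose by 0.54 ± 0.10 in ileum and 0.32 ± 0.06 in colon (adjusted p 0.0028 and 0.0012, limma). Of breakdown inside the cell 4 of 18, 3 of 18 and 9 of 19 were called, 5 of those in colon lower. Nudt16, an inosine diphosphatase, fell in duodenum/jejunum (-0.82 ± 0.13) and ileum (-1.07 ± 0.17) (adjusted p 0.0006 and 0.00051). In colon Nudt16 averaged 51.8 ± 14.1 TPM in BALB/cJ and 107.8 ± 12.7 TPM in C57BL/6J (SD), and the strains did not overlap there either. Test values are given for a gene in the tissues where it was among the 3 with the smallest adjusted p of its list, so a tissue not named is not one without a difference. Itpa, which clears ITP, fell in duodenum/jejunum (-0.69 ± 0.14) and colon (-0.60 ± 0.05) (adjusted p 0.004 and 9.2e-07), and shares 23.3% of its words with Itpa-ps1. Lacc1, reported to have purine nucleoside phosphorylase activity, fell by 1.06 ± 0.13 in colon (adjusted p 3.3e-05), with 3.98 ± 0.893 TPM in BALB/cJ and 9.34 ± 1.69 TPM in C57BL/6J (SD). Adal, an adenosine deaminase-like gene, rose in all 3 tissues, in colon by 0.83 ± 0.08 (adjusted p 1.9e-06).

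The other lists had fewer strain calls than intracellular breakdown in colon. The median differences in colon were 0.05 for synthesis de novo, -0.07 for breakdown, -0.08 for the kinases, 0.08 for extracellular handling, 0.04 for transporters, 0.11 for urate handling and 0.03 for pyrimidines, against 0.02 over all genes. Of the kinases 2 of 15, 2 of 15 and 4 of 15 were called, of extracellular handling 1 of 19, 4 of 19 and 5 of 18, of transporters none of 8, none of 7 and 2 of 8, and of urate handling 1 of 9, 1 of 9 and 2 of 10. Acpp, a phosphatase able to release adenosine from AMP, fell by 1.42 ± 0.12 in colon and the nucleoside carrier Slc28a3 fell by 0.68 ± 0.10 (adjusted p 4.1e-07 and 0.00024, limma). Aox1, an aldehyde oxidase related to Xdh, rose by 0.72 ± 0.13 in ileum and 0.84 ± 0.09 in colon (adjusted p 0.0015 and 1.1e-05). In ileum Aox1 met the filter of 1 TPM through BALB/cJ, at lowest 1.56 TPM against a C57BL/6J median of 0.859 TPM. That ileum call is therefore a description only. Of the pyrimidine list, which also holds Ahcy and Mtap, 3 of 12, 2 of 12 and 2 of 12 were called. Ahcy, which releases adenosine from S-adenosylhomocysteine, fell in all 3 tissues, with differences of -2.68 ± 0.09, -2.16 ± 0.10 and -2.34 ± 0.07 (adjusted p 9.5e-12, 7.3e-10 and 2.2e-12). In colon it averaged 17 ± 1.6 TPM in BALB/cJ and 89.8 ± 7.08 TPM in C57BL/6J, and 68.7% of its words are shared with Gm4737, so its split from that copy is uncertain.

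Within 250 kb of Pnp and Pnp2, 10 other genes were tested in at least 1 tissue. Called were 4 of 10 in duodenum/jejunum, 2 of 10 in ileum and 3 of 8 in colon, against 9.50%, 20.4% and 25.3% of all genes. Ang, an angiogenin gene, fell in colon (-1.56 ± 0.08) and duodenum/jejunum (-0.80 ± 0.11) (adjusted p 1.9e-09 and 0.00014, limma), and its span overlaps that of Rnase4 on the same strand, which fell by 0.41 ± 0.08 in colon (adjusted p 0.0014). Ang averaged 16.5 ± 1.87 TPM in BALB/cJ and 50.6 ± 4.73 TPM in C57BL/6J colon (SD). Klhl33 rose by 1.11 ± 0.17 in duodenum/jejunum and 0.87 ± 0.16 in ileum (adjusted p 0.0003 and 0.0018), at means of 2.99 and 2.16 TPM in BALB/cJ and 0.834 and 0.729 TPM in C57BL/6J. It met the filter of 1 TPM in 6 libraries through BALB/cJ, at lowest 2.0 and 1.36 TPM. The C57BL/6J medians were 0.827 and 0.614 TPM. Its 2 calls, counted above, are therefore a description only. In colon, at means of 0.873 and 0.294 TPM, Klhl33 was not tested. Parp2 and Osgep fell in duodenum/jejunum, with differences of -0.48 ± 0.09 and -0.48 ± 0.13 (adjusted p 0.0015 and 0.025). Rnase6 rose in colon by 0.85 ± 0.19 (adjusted p 0.0044), and Rnase1, a pancreatic ribonuclease, fell by 0.88 ± 0.24 (adjusted p 0.022) in ileum, where summed pancreas markers (7 genes) were 3.08 to 4.6 TPM in BALB/cJ and 4.41 to 6.56 TPM in C57BL/6J.

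The genes whose level followed a member most closely over the 39 libraries were found by the root mean square distance between standardised log2(TPM + 1) profiles among 12103 genes. For Pnp they were Slc25a15, Mogat2 and Otc, at 0.201, 0.212 and 0.217 SD. For Pnp2 they were Btnl6, a butyrophilin-like gene, H2-K1, a class I histocompatibility gene, and Trim5, at 0.158, 0.231 and 0.312 SD. Btnl6 averaged 9.29 ± 1.40 TPM in BALB/cJ and 87.2 ± 16.5 TPM in C57BL/6J colon (SD). For Ada they were the nucleoside carrier gene Slc28a2, the nucleobase carrier gene Slc23a4 and Sec14l2, at 0.158, 0.162 and 0.169 SD. Xdh and Gda were each nearest to the other, at 0.186 SD, followed by Treh and Gata4 for Xdh and by Smpdl3b and Cideb for Gda. For Aprt they were Mdh1, Scp2 and Enpp3, at 0.220, 0.226 and 0.255 SD. Hprt and Nt5e had no close neighbour: their nearest were Slc35b2 at 0.324 SD and Ypel5 at 0.609 SD. These distances rest on 6 groups of libraries and describe likeness only.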

How the data were processed

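Total RNA was taken with a PureLink kit and sequenced as ribosome-depleted TruSeq libraries, per the labels' protocols. The authors deposited log2(TPM + 1) values per gene for 39 libraries, made with kallisto 0.44.0 on GRCm38, per the submitters' processing notes; the annotation behind them was not given in the sources used here. TPM was recovered by inverting the log2 values. Genes at 1 TPM or more in at least 6 libraries were fitted with limma 3.58.1 (variance trend, R 4.3.3), within a tissue for strain and over all libraries for tissue, with Benjamini-Hochberg adjustment over all genes and a threshold of 0.05. The fits over all libraries took the 39 as independent, although tissues share mice. The mouse as a block was an alternative only. The fits were also run on simulated libraries drawn independently, without mice shared between tissues, and no result here rests on that run. Tissues carrying the same strain and mouse number come from 1 animal: deviations correlated within a mouse at medians of 0.247, 0.146 and 0.107 for ileum with duodenum/jejunum, colon with ileum and colon with duodenum/jejunum, and the consensus correlation was 0.0977. Members and lists were chosen with earlier results of these data known. Named list genes are from the up to 3 with the smallest adjusted p in a list and comparison, and fold changes of low genes are understated by the pseudocount of 1. Transcript words and coordinates are from GENCODE M21.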

Additional observations from a re-analysis of the deposited data

Results flagged for a closer look

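Among 54 groups looked at (9 quantities in 6 groups of mice), 10 held a library far from the others by Dixon's criterion, which chance meets in about 1 of 20 groups. Of these, 5 came from the ileum library of C57BL/6J mouse 2, which lacked ileal markers, with Ada at 982.6 TPM, Gda at 865.2, Xdh at 479.6, Aprt at 250.1 and Hprt at 50.1. The ileum library of BALB/cJ mouse 2, lowest in enterocyte markers, gave 3, with Ada at 64.2 TPM, Pnp at 133.4 and the sum of Pnp and Pnp2 at 137.5. The colon library of C57BL/6J mouse 6 gave the other 2, with Nt5e at 67.5 TPM and Pnp2 at 27.8. The strain difference (BALB/cJ minus C57BL/6J) differed between colon and ileum by 1.19 for Gda and by -0.26 for Hprt (limma, adjusted p 0.034 and 0.043), and neither passed without C57BL/6J mouse 2.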

How the results depend on the processing

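No called difference of a member changed direction under the alternatives tried. These were another pseudocount, no filter or a stricter one, relative log expression (RLE) scaling, no variance trend and the replicate block. Others left out C57BL/6J mouse 2 or BALB/cJ mice 3 and 5. Leaving out mouse 2 of both strains was added after the data were seen. Single genes of the wider lists and neighbours of Pnp were not followed through these alternatives. Estimates that were not called did change sign: under RLE scaling the strain difference of Aprt in ileum was -0.04 and ileum minus duodenum/jejunum was -0.05 for Pnp and -0.06 for Hprt. The tissue tests of the sum of Pnp and Pnp2 were repeated only without C57BL/6J mouse 2 and without pairing tissues within mice, and kept their calls in both. Without BALB/cJ mice 3 and 5 the strain calls were 5 of the wider lists in duodenum/jejunum, and 1812 genes, 0 members and 8 list genes in ileum; the strain differences between tissues were called at 68 genes (ileum minus duodenum/jejunum), 392 genes and 0 members (colon minus ileum) and 508 genes (colon minus duodenum/jejunum). Under RLE scaling ileum had 1792 genes, 0 members and 8 list genes called by strain, and the strain differences 115 genes (ileum minus duodenum/jejunum) and 1 member (colon minus ileum). Without C57BL/6J mouse 2, 2 members were called by strain in ileum. The strain difference between tissues was then called at 0 members for colon minus ileum and 1 for colon minus duodenum/jejunum. Without mouse 2 of both strains the same counts were 2, 0 and 1. The 2 in ileum were Aprt (0.29, adjusted p 0.015, limma) and Nt5e (1.02, adjusted p 0.017), and Hprt was lost (0.14, adjusted p 0.053). The strain difference between tissues was then called at 365 genes for ileum minus duodenum/jejunum and 1443 for colon minus duodenum/jejunum. Without the variance trend, 0 members were called by strain in ileum, and the strain difference in colon minus ileum was called at 1 member. With no filter that strain difference was called at 1 member, and the strain difference in ileum minus duodenum/jejunum at 391 genes. Causes of these shifts were not tested.

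Mouse numbers are shared between strains only as numbers: same-numbered mice correlated between -0.347 and 0.225, and 1, 0 and 1 of 6 pairs fitted best with their own number in duodenum/jejunum, ileum and colon. With that number as a replicate block, strain calls were 7 list genes in duodenum/jejunum, 929 genes, 0 members and 3 list genes in ileum and 1 member in colon (Aprt lost, 0.14, adjusted p 0.075, limma). With the mouse as a block across tissues, the strain difference in ileum minus duodenum/jejunum was called at 1337 genes, and no other member call moved. Depth is unknown, so the counting error of low values, such as Pnp2 in BALB/cJ colon, cannot be given.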
